A study of Homo sapiens with 6 samples.

Results

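The genes described here are 39 genes of cholesterol and fatty acid synthesis, chosen by gene symbol from a table of 58302 genes. They comprise 18 enzymes of the sterol pathway from acetyl-CoA to cholesterol, 4 genes of sterol transport, storage and uptake control, 5 regulators of the sterol response and 12 genes of fatty acid synthesis, elongation, desaturation and activation. Each was measured by RNA sequencing in the cell line MDA-MB-231-DR, which was derived from MDA-MB-231, a human breast cancer line of the triple-negative type, and resists doxorubicin. Both groups were this resistant line, with 3 control libraries and 3 libraries of cells treated with CYT (cyperotundone, a plant sesquiterpene). According to the methods the resistant line was kept in medium with a low concentration of doxorubicin. Whether that agent was present during the CYT treatment, and the dose and time of CYT for these libraries, are not given in the sources used here. All values come from this resistant line alone, and the sources do not say whether it is a single clone. The methods speak of independent experiments for the study's data in general, and nothing ties that to the sequenced libraries. The p-values therefore measure the spread between libraries, which may be technical.

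Cholesterol is built from acetyl-CoA through mevalonate, farnesyl diphosphate, squalene and lanosterol, and fatty acids are built from the same acetyl-CoA through malonyl-CoA. Transcription of both pathways is driven by the sterol regulatory element-binding proteins (SREBPs), which are held in the endoplasmic reticulum by SCAP and the INSIG proteins when sterol is plentiful and are released to the nucleus when it is scarce. Of the SREBPs, the product of SREBF2 is known mainly for sterol genes and the main product of SREBF1 for fatty acid genes. They bind sterol regulatory elements together with partner factors such as NF-Y, which recognises the CCAAT box.

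The promoters are shown because the CCAAT box is a letter pattern that most sterol enzymes with a matched window share. Any part of this pattern in the changes after CYT was not tested. RefSeq windows of 300 bases (GRCh38.p14, from 250 bases before a transcription start to 50 after it) were matched by symbol for 35 of the 39 genes, and no window was matched for ACAT2, FDFT1, SQLE or FASN. Some genes have several windows, and 26 of the 35 have exactly 1. The 6 windows below belong to MVK (chr12:109573544-109573843, plus strand), FDPS (chr1:155308616-155308915, plus strand), LSS (chr21:46228725-46229024, minus strand), EBP (chrX:48521558-48521857, plus strand), MYLIP (chr6:16128836-16129135, plus strand) and SREBF2 (chr22:41832855-41833154, plus strand). The first 4 are sterol enzymes that fell, MYLIP is the gene that rose, and SREBF2 is the regulator whose window holds a sterol regulatory element. Each reads 5′ to 3′ on the gene's strand, and capitals mark the CCAAT box (CCAAT, or ATTGG where it lies on the other strand) and, in SREBF2, the sterol regulatory element.
MVK: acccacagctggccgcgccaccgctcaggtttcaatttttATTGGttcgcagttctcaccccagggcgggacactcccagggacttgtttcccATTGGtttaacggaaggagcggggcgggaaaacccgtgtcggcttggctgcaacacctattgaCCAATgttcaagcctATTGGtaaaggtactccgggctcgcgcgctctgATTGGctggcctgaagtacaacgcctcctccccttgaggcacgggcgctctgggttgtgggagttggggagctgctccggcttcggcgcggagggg
FDPS: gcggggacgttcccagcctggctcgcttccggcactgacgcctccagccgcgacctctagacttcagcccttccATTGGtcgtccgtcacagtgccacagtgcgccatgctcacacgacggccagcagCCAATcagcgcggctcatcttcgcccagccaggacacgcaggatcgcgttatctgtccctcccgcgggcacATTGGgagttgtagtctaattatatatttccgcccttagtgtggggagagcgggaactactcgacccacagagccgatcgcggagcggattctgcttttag
LSS: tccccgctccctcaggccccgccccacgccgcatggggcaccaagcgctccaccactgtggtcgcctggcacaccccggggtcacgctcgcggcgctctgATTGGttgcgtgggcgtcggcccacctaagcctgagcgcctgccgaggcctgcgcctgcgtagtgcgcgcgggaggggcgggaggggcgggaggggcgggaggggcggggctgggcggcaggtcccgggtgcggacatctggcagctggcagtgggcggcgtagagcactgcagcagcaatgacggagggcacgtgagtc
EBP: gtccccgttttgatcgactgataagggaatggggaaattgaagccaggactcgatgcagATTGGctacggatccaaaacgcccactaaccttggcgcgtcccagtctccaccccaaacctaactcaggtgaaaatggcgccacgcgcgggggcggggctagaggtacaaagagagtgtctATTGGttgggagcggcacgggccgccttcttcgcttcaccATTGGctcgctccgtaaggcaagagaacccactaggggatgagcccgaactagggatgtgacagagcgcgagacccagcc
MYLIP: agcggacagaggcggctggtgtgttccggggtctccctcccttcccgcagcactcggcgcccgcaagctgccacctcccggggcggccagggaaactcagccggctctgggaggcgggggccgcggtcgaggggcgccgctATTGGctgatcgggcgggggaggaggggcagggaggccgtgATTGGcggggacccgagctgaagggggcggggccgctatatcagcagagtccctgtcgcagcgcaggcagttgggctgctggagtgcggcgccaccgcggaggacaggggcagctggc
SREBF2: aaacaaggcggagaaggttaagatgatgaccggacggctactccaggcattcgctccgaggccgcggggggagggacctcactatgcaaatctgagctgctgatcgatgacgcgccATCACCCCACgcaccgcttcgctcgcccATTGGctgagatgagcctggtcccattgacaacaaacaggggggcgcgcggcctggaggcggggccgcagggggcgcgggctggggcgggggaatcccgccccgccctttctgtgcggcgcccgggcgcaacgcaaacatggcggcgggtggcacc

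The MVK window holds 5 CCAAT boxes, FDPS and EBP hold 3 each, MYLIP holds 2, and LSS and SREBF2 hold 1 each. A CCAAT box was found in at least 1 window of 13 of the 15 sterol enzymes that have one (86.7%) and of 7 of 11 fatty acid genes (63.6%). The same letters were found in 43.0% of the 10513 genes with a window among the genes tested and in 39.7% of all 27305 genes with a window. Among genes with exactly 1 window the shares were 9 of 11 sterol enzymes (81.8%), 4 of 7 fatty acid genes (57.1%) and 37.9% of the genes tested. The box was found in 8 of 9 sterol enzymes that fell and in 5 of 6 whose change did not pass the test. The sterol regulatory element, searched on both strands as the letters TCACNCCAC with an A before them, was found in 1 of the 35 genes, SREBF2, where it lies 134 bases before the start and 28 bases from the start of the CCAAT box. It was found in 0.162% of the genes tested. The shorter core TCACNCCAC, which lies within the longer motif, was also found only in SREBF2 among the 35 genes, against 1.39% of all genes. The GC box GGGCGG, the letters bound by Sp1, was found in 33 of the 35 genes (94.3%) against 76.9% of the genes tested, and the E-box CACGTG in 5 of the 35 (14.3%) against 12.6%. These are letter matches in fixed windows and do not show binding.

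The summed gene counts ran from 14050849 to 17770102 in the control libraries and from 13056270 to 14106017 in the CYT libraries. All 39 genes were among the 15572 kept by edgeR's filterByExpr with a minimum count of 10. Levels are given as CPM, counts scaled to the library total and by the TMM method, and a gene was called higher or lower where edgeR's quasi-likelihood test gave a Benjamini-Hochberg adjusted p under 0.05 over all genes tested. The mesenchymal markers of the line (VIM, CD44, AXL, MSN and FOSL1) summed to 4224 to 4813 CPM in control and 2115 to 2309 CPM in CYT libraries, with VIM, AXL and FOSL1 called lower. The luminal and epithelial markers CDH1, ESR1, PGR, GATA3 and EPCAM summed to at most 5.38 CPM in any library. The 7 markers of leukocytes, endothelium, hepatocytes, adipocytes and fibroblasts summed to 13.9 to 20.9 CPM in control and 6.60 to 8.39 CPM in CYT libraries, and CD3E and ADIPOQ were at 0 in every library. Of these 7, COL1A1 was called lower, from 15.02 to 3.36 CPM, and PLIN1 was called higher, from 0.470 to 2.02 CPM. The sum followed COL1A1. ALB and PTPRC, too low to be tested, had no count in control and went the other way, with 12, 14 and 9 counts and with 7, 2 and 2 counts in CYT libraries 1 to 3. The mitochondrial ribosomal genes MT-RNR1 and MT-RNR2 took 0.148% to 0.221% of counts in control and 1.56% to 1.74% in CYT libraries. Library 2 of each group stood apart. Across the 39 genes, the deviation of a library from its group mean followed the GC content of the transcript, with a correlation of -0.745 in control 2 and -0.937 in CYT 2 against 0.797 in control 1, 0.0721 in control 3, 0.761 in CYT 1 and 0.879 in CYT 3, as a description over genes that share their library. The part of these differences in the results was not tested beyond the values given with a correction for GC content and without both libraries of number 2.

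Most enzymes of the sterol pathway were lower in CYT-treated cells, from ACAT2 at its start to DHCR7 at its end. Of the 18 enzymes, 12 fell, none rose and 6 did not pass the test, and 17 of 18 had a negative log2 fold change, although NSDHL turned positive with upper-quartile normalization, with a minimum mean of 5 CPM and without control 3 or CYT 2. The median log2 fold change of the 18 was -1.20, with a range from -2.19 to 0.38, against 0.00636 for all genes tested. The share called lower was 66.7% for the sterol enzymes, against 12.9% of all genes tested. With an additional log2 fold change under -1 the count was 11 of 18, against 12.2% of all genes. In 12 of the 18 every CYT library lay below every control library, which was the case for 22.7% of all genes. These 12 are the enzymes called lower. In bulk libraries such as these, fewer cells of a kind and less RNA per cell cannot be told apart.

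**Figure D1:**
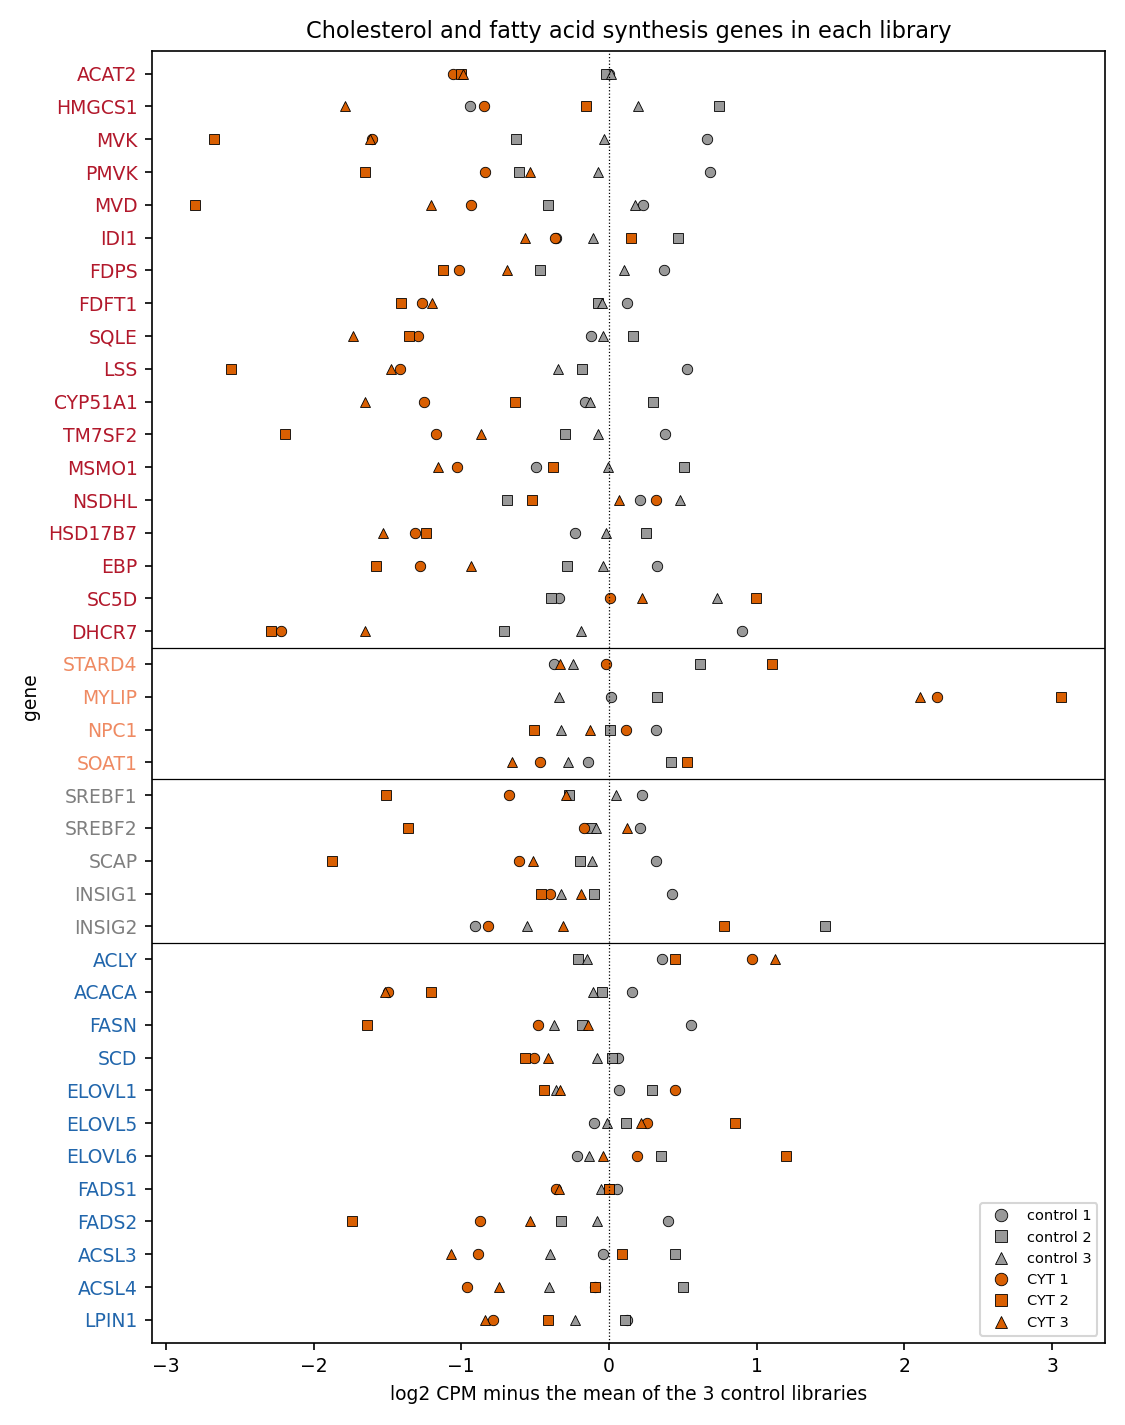
Level of each of the 39 genes in each of the 6 libraries, as log2 CPM minus the mean of the 3 control libraries (horizontal axis), with control libraries in grey, CYT libraries in orange and the marker shape giving the library number. In the 12 sterol enzymes called lower and in ACACA all 3 CYT libraries lie to the left of all control libraries, while MYLIP lies at the far right in all 3.

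The early steps make and phosphorylate mevalonate. ACAT2 joins acetyl-CoA units into acetoacetyl-CoA, and its level was 350.1, 345 and 354 CPM in control libraries 1 to 3 and 168, 175 and 176 CPM in CYT libraries 1 to 3. The libraries of each group lay close together and the groups were far apart. ACAT2 fell by 1.02 on the log2 scale (SE 0.25, edgeR's quasi-likelihood test, adjusted p = 0.0153). HMGCS1, which condenses acetoacetyl-CoA into HMG-CoA, had a log2 fold change of -0.94 (SE 0.50) with an adjusted p of 0.187 by edgeR. Its control libraries alone ran from 74.5 to 240.0 CPM and overlapped with the CYT range of 41.3 to 128 CPM. MVK (ENSG00000110921, chromosome 12, 109573255 to 109598117, hg38) phosphorylates mevalonate. It was at 131, 53.4 and 80.5 CPM in control and 27.1, 12.8 and 26.9 CPM in CYT libraries. Every CYT library was below the lowest control library, and library 2 was the lowest of its group on both sides. MVK fell by 1.99 on the log2 scale (SE 0.43, adjusted p = 0.00849 by edgeR), with a control level 3.96-fold above the CYT level. PMVK adds the next phosphate, and its log2 fold change was -1.04 (SE 0.42) with an adjusted p of 0.0915 by edgeR, with CPM from 27.0 to 66.6 in control and from 13.1 to 28.5 after CYT.

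MVD decarboxylates the product to isopentenyl diphosphate. It was at 180.2, 115 and 174 CPM in control and 80.4, 21.9 and 66.4 CPM in CYT libraries. CYT 2 was far below the other CYT libraries, and the groups did not overlap. MVD fell by 1.48 on the log2 scale (SE 0.46, adjusted p = 0.0381 by edgeR). IDI1, which isomerises isopentenyl diphosphate, was at 130.4 to 231 CPM in control and 113 to 186 CPM in CYT libraries, with a log2 fold change of -0.27 and an adjusted p of 0.575 by edgeR. FDPS builds farnesyl diphosphate, from which sterols, ubiquinone and prenyl anchors are made. Its level was 568, 317 and 471 CPM in control and 217, 202 and 272 CPM in CYT libraries. The control libraries differed more among themselves than the CYT libraries did, and the groups did not overlap. FDPS fell by 0.97 on the log2 scale (SE 0.31, adjusted p = 0.0407 by edgeR).

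The steps from squalene to lanosterol are committed to sterol, and all 3 enzymes fell, against 12.9% of all genes called lower. FDFT1, squalene synthase, was at 291, 253 and 258 CPM in control and 111, 100.2 and 116 CPM in CYT libraries. The spread within each group was small against the gap between them. FDFT1 fell by 1.29 on the log2 scale (SE 0.26, adjusted p = 0.00619 by edgeR). SQLE, the squalene epoxidase and a known rate-controlling step, was at 31.1, 38.0 and 32.9 CPM in control and 13.8, 13.2 and 10.1 CPM in CYT libraries. All CYT values lay below all control values. SQLE fell by 1.46 on the log2 scale (SE 0.30, adjusted p = 0.00628 by edgeR). LSS (ENSG00000160285, chromosome 21, 46188141 to 46228824) folds squalene epoxide into lanosterol. It was at 235, 144 and 129 CPM in control and 61.1, 27.5 and 58.6 CPM in CYT libraries. CYT 2 was again the lowest, and the highest CYT library was below the lowest control library. LSS fell by 1.79 on the log2 scale (SE 0.40, adjusted p = 0.0094 by edgeR), a level 3.45-fold higher in control.

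Of the enzymes that turn lanosterol into cholesterol, 5 of 8 were called lower, against 12.9% of all genes. The 8 are TM7SF2, HSD17B7, EBP, DHCR7, CYP51A1, MSMO1, NSDHL and SC5D. CYP51A1 starts the removal of the methyl groups of lanosterol. It was at 156, 215 and 160.2 CPM in control and 73.6, 113 and 55.6 CPM in CYT libraries. Library 2 was the highest of each group, and the groups did not overlap. CYP51A1 fell by 1.13 on the log2 scale (SE 0.34, adjusted p = 0.0323 by edgeR). TM7SF2, a sterol reductase, was at 28.9, 18.05 and 21.1 CPM in control and 9.80, 4.77 and 12.2 CPM in CYT libraries. The groups did not overlap, and CYT 2 was the lowest library. TM7SF2 fell by 1.35 on the log2 scale (SE 0.40, adjusted p = 0.0331 by edgeR). Its exons overlap on the same strand with VPS51, whose summed count over the libraries was 910% of that of TM7SF2 and whose log2 fold change was -0.91 (adjusted p = 0.135 by edgeR), so reads of the pair may be shared.

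HSD17B7 reduces a keto group formed during demethylation. It was at 62.5, 87.1 and 72.5 CPM in control and 29.4, 31.0 and 25.3 CPM in CYT libraries. The CYT libraries lay close together and well below the control libraries. HSD17B7 fell by 1.37 on the log2 scale (SE 0.29, adjusted p = 0.00722 by edgeR). EBP, the sterol isomerase, was at 88.8, 58.1 and 69.0 CPM in control and 29.1, 23.6 and 37.1 CPM in CYT libraries. The groups did not overlap. EBP fell by 1.26 on the log2 scale (SE 0.32, adjusted p = 0.0157 by edgeR). DHCR7 (ENSG00000172893, chromosome 11, 71428193 to 71452868) carries out the last reduction that gives cholesterol. It was at 395, 129 and 185 CPM in control and 45.3, 43.3 and 67.3 CPM in CYT libraries. Control 1 was far above the other controls, and the CYT libraries lay below all of them. DHCR7 fell by 2.19 on the log2 scale (SE 0.44, adjusted p = 0.00601 by edgeR), with a control level 4.55-fold above the CYT level, the lowest fold change of the 39 genes.

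The other 3 enzymes of this stretch overlapped between the groups. MSMO1, a sterol methyl oxidase, had a log2 fold change of -0.87 with an adjusted p of 0.0938. NSDHL, a decarboxylating sterol dehydrogenase, had -0.08 with 0.890, and SC5D, a sterol desaturase, had 0.38 with 0.526, all by edgeR's quasi-likelihood test. SC5D turned to -0.15 without both libraries of number 2. The 6 sterol enzymes that did not pass the test had transcripts with a median GC content of 40.6%, against 54.7% for the 12 that fell. Exceptions went both ways. CYP51A1 (41.5%) and HSD17B7 (41.7%) fell as well, while PMVK (59.5%) and NSDHL (50.5%) did not pass the test. With the correction for GC content and transcript length, 15 sterol enzymes were called lower against 26.0% of all genes, the 3 added being HMGCS1 (log2 fold change -1.09, adjusted p = 0.0292), PMVK and MSMO1. Without both libraries of number 2 there were 14 against 19.6% of all genes, and with the replicate number as a block there were 14 against 19.8%.

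**Figure D2:**
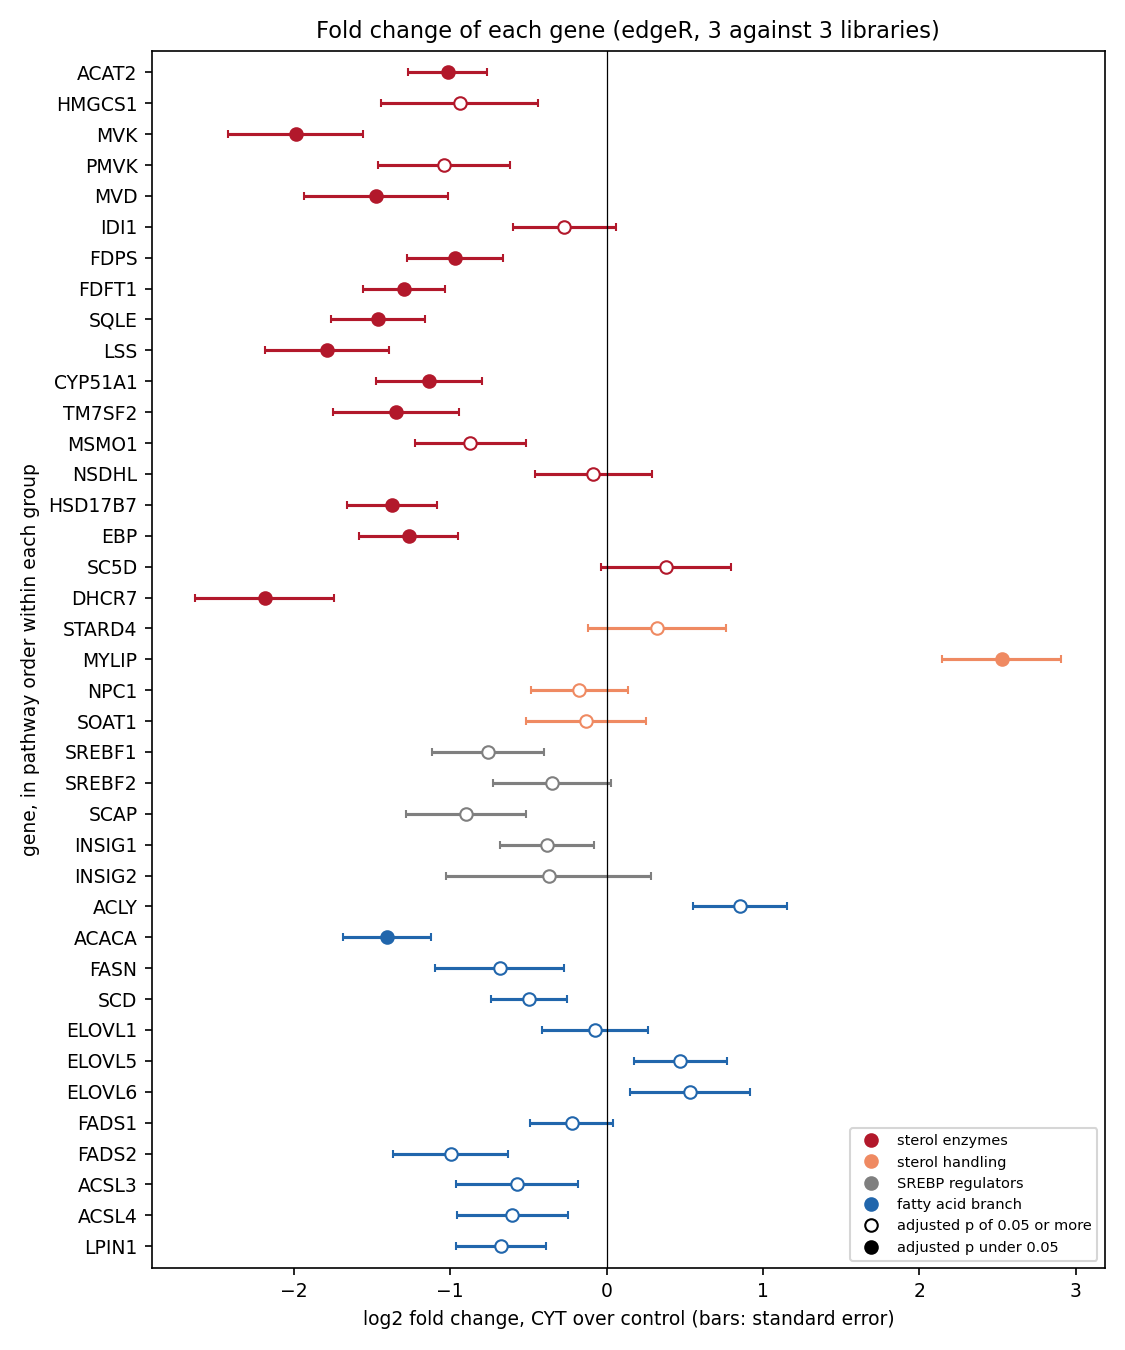
Log2 fold change of CYT over control for each of the 39 genes (horizontal axis), with bars of 1 standard error from edgeR over 3 against 3 libraries, filled points for an adjusted p under 0.05 and colours for the role of the gene. Filled points are 12 sterol enzymes between -2.19 and -0.97, MYLIP at 2.53 and ACACA at -1.41.

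Calls changed with the setting in some of the enzymes. MVK, FDFT1, SQLE, LSS, HSD17B7 and DHCR7 were called lower in all 17 alternative settings. ACAT2, MVD, FDPS, CYP51A1, TM7SF2 and EBP were not, although their log2 fold changes stayed negative. With 1 library left out the log2 fold change of ACAT2 was -1.03 without control 3 and -1.01 without CYT 3, and the ranges were -1.42 to -1.105 for EBP, -1.60 to -1.05 for TM7SF2, -1.83 to -1.09 for MVD, -1.46 to -0.91 for CYP51A1 and -1.18 to -0.79 for FDPS. ACAT2 was not called without control 3, CYT 1 or CYT 3, and TM7SF2 and EBP were not called without control 1, control 3 or CYT 1. MVD, FDPS and CYP51A1 were not called with upper-quartile normalization or with a minimum mean of 5 CPM. MVD was also not called without control 1, control 3 or CYT 3, FDPS without any of these or CYT 1, and CYP51A1 without any single library other than CYT 2. The number of sterol enzymes called lower was 6 without control 3 (against 7.36% of all genes called lower), 7 without control 1 (against 7.41%), 7 without CYT 1 (against 8.48%), 8 without CYT 3 (against 7.63%), 11 without control 2 (against 10.2%) and 13 without CYT 2 (against 17.0%). The largest count came with the largest share over all genes, and the smallest with the smallest, so a lost call does not by itself show that a gene rests on that library.

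Of the 4 genes that handle finished sterol none fell, where 12.9% of all genes were called lower. MYLIP was higher in CYT-treated cells, and the other 3 did not pass the test. MYLIP (ENSG00000007944, chromosome 6, 16129125 to 16148248) encodes a ubiquitin ligase that sends lipoprotein receptors for degradation and is known as a target of the liver X receptors (LXRs). It was at 6.63, 8.25 and 5.18 CPM in control and 31.2, 55.9 and 28.8 CPM in CYT libraries. Every CYT library was above every control library, which was the case for 23.4% of all genes. MYLIP rose by 2.53 on the log2 scale (SE 0.38, adjusted p = 0.00189 by edgeR), a 5.76-fold higher level, and 15.7% of all genes were called higher. STARD4, a cytosolic sterol carrier, had a log2 fold change of 0.32 (adjusted p = 0.620), NPC1, which exports cholesterol from lysosomes, had -0.17 (0.707), and SOAT1, which esterifies cholesterol for storage, had -0.13 (0.824), by the same edgeR test. STARD4 turned to -0.25 without CYT 2, and SOAT1 turned positive with upper-quartile normalization and without control 2, CYT 1 or CYT 3. In each of these 3 the groups overlapped.

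None of the 5 regulators passed the test, where 12.9% of all genes were called lower and 15.7% higher. All 5 had a negative log2 fold change, with a median of -0.38. INSIG2 turned positive without both libraries of number 2 or without control 2 alone. SREBF1 was at 95.2, 67.5 and 84.1 CPM in control and 50.9, 28.5 and 66.4 CPM in CYT libraries. The highest CYT library lay just below the lowest control library. The log2 fold change of SREBF1 was -0.76 (SE 0.36, adjusted p = 0.141 by edgeR). The exons of SREBF1 overlap those of RAI1 on the other strand, whose summed count was 57.6% of that of SREBF1 and whose log2 fold change was -1.09 (adjusted p = 0.0968 by edgeR). SREBF2 was at 421, 335 and 343 CPM in control and 325, 142 and 397 CPM in CYT libraries. CYT 3 lay within the control range while CYT 2 was far below it. The log2 fold change of SREBF2 was -0.35 (SE 0.38, adjusted p = 0.523 by edgeR).

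SCAP, the sterol-sensing escort of the SREBPs, was at 249.8, 175 and 185 CPM in control and 132, 54.7 and 141 CPM in CYT libraries. The groups did not overlap, and CYT 2 was far below the rest. The log2 fold change of SCAP was -0.90 (SE 0.38, adjusted p = 0.109 by edgeR). INSIG1, which retains SCAP in the endoplasmic reticulum and is itself an SREBP target, was at 186, 129 and 110.4 CPM in control and 105, 100.3 and 121 CPM in CYT libraries. The groups overlapped, with a log2 fold change of -0.38 (SE 0.30, adjusted p = 0.372 by edgeR). INSIG2, a second retention protein, was at 5.08, 26.9 and 6.54 CPM in control and 5.43, 16.7 and 7.79 CPM in CYT libraries. In both groups library 2 was the highest by far, and the log2 fold change was -0.37 (SE 0.65, adjusted p = 0.705 by edgeR). The replicate block brought SCAP (log2 fold change -0.997, adjusted p = 0.0252) and SREBF1 (-0.83, adjusted p = 0.0345) past the threshold. SCAP was also called lower with the GC correction, with or without the block, and SREBF1 in no other setting. The other 3 regulators were not called in any setting.

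In the fatty acid branch 1 of 12 genes fell, none rose and 11 did not pass the test. The share called lower was 8.33%, near the 12.9% of all genes. The median log2 fold change was -0.53, with 9 negative and 3 positive values from -1.41 to 0.85, although ELOVL1 turned positive in several settings, upper-quartile normalization among them. Every CYT library lay below every control library in 4 of the 12 genes (33.3%, against 22.7% of all genes) and above in 2 (against 23.4%). The gene that fell was ACACA (ENSG00000278540, chromosome 17, 37084988 to 37406818), the acetyl-CoA carboxylase that makes malonyl-CoA and sets the pace of fatty acid synthesis. It was at 83.4, 72.5 and 69.6 CPM in control and 26.5, 32.4 and 26.1 CPM in CYT libraries. The spread within each group was small against the gap. ACACA fell by 1.41 on the log2 scale (SE 0.28, adjusted p = 0.00572 by edgeR) and was called lower in all 17 alternative settings.

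ACLY, which supplies cytosolic acetyl-CoA from citrate to both pathways, was higher in every CYT library than in every control library, with 827, 558 and 582 CPM in control and 1264, 879.8 and 1406 CPM after CYT. Its log2 fold change of 0.85 (SE 0.30) missed the threshold with an adjusted p of 0.0597 by edgeR, and it was called higher in 11 of the 17 alternative settings. FASN, the fatty acid synthase, was at 1614, 964 and 847 CPM in control and 786, 353 and 994 CPM in CYT libraries. The groups overlapped through CYT 3, and the log2 fold change was -0.68 (adjusted p = 0.244 by edgeR). SCD, the desaturase that makes oleate, was at 1421, 1384 and 1289.7 CPM in control and 961, 919 and 1022 CPM in CYT libraries. The groups did not overlap, and the log2 fold change was -0.50 (adjusted p = 0.156 by edgeR).

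The elongases and desaturases gave values on both sides of 0. The log2 fold change was -0.08 for ELOVL1, 0.47 for ELOVL5 and 0.53 for ELOVL6, enzymes that lengthen fatty acids, with adjusted p-values of 0.889, 0.263 and 0.328 by edgeR. FADS1 and FADS2, which desaturate polyunsaturated fatty acids, had log2 fold changes of -0.22 (adjusted p = 0.561) and -0.997 (adjusted p = 0.0687). FADS2 was called lower in 8 of the 17 alternative settings, and its exons overlap those of FEN1 on the same strand, whose summed count was 176% of that of FADS2 and whose log2 fold change was 0.72. The fatty acid activating enzymes ACSL3 and ACSL4 had log2 fold changes of -0.57 and -0.60, and LPIN1, a phosphatidate phosphatase of glycerolipid synthesis, had -0.68 (adjusted p = 0.108 by edgeR). Of the 17 alternative settings, ACSL3 was called lower in 4, ACSL4 in 2 and LPIN1 in 5. For LPIN1 the replicate block was among them.

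Set side by side in each library, the sterol enzymes lay further below control than the fatty acid genes. The median over the sterol enzymes of log2 CPM minus the control mean was 0.17, -0.24 and -0.037 in control libraries 1 to 3 and -1.11, -1.30 and -1.18 in CYT libraries 1 to 3. The same median over the fatty acid genes was 0.063, 0.063 and -0.14 in control and -0.49, -0.25 and -0.38 in CYT libraries. The sterol median minus the fatty acid median was 0.10, -0.30 and 0.11 in control and -0.62, -1.04 and -0.80 in CYT libraries. All 3 CYT values lay below all 3 control values, and the medians of all genes tested stayed between -0.015 and 0.029. The branch medians of the fitted log2 fold changes differed by -0.67, which was not tested because the genes were chosen with earlier results known. With the 4 sterol handling genes added to the sterol side its median was -1.03, and with the GC correction the branches differed by -0.87. With that correction 5 fatty acid genes were called lower against 26.0% of all genes, with the replicate block there were 3 against 19.8%, and without both libraries of number 2 there were 4 against 19.6%.

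**Figure D3:**
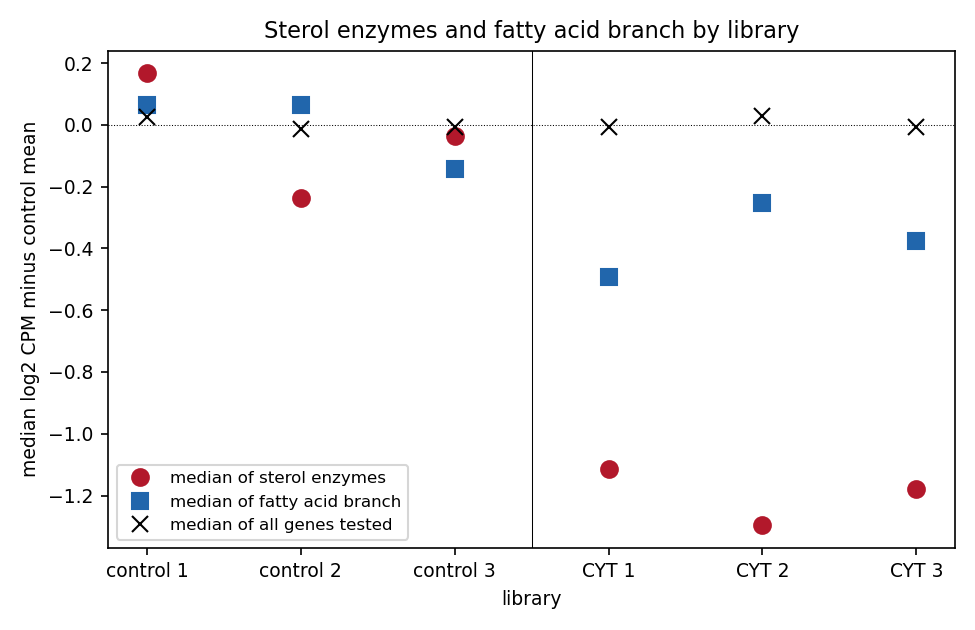
Median of log2 CPM minus the control mean over the 18 sterol enzymes (red circles), the 12 fatty acid genes (blue squares) and all genes tested (crosses) in each of the 6 libraries. In the CYT libraries the sterol median lies between -1.30 and -1.11 and the fatty acid median between -0.49 and -0.25.

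Per gene length, the levels before treatment differed widely within both branches, in FPKM as the authors deposited it. SCD was the highest of the 39 genes in control at 252 ± 18.1 FPKM (SD, n = 3), followed by FASN at 84.8 ± 25.9, ACLY at 70.8 ± 11.8 and ACAT2 at 69.7 ± 4.01. The last 3 did not differ beyond their spread. After CYT the order was SCD at 181 ± 2.94, ACLY at 129 ± 22.2, FASN at 53.1 ± 21.7 and ACAT2 at 35.0 ± 2.46 FPKM. ACACA, the gene that fell in the fatty acid branch, lay far below these, at 3.25 ± 0.206 FPKM in control and 1.25 ± 0.238 after CYT. DHCR7 went from 30.3 ± 16.2 to 6.85 ± 1.31 FPKM, and MVK from 6.09 ± 2.34 to 1.56 ± 0.513. The lowest levels in control were those of INSIG2 at 1.46 ± 1.46, TM7SF2 at 1.86 ± 0.341 and MYLIP at 1.91 ± 0.530 FPKM, which did not differ beyond their spread. MYLIP reached 11.3 ± 5.16 FPKM after CYT.

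**Figure D4:**
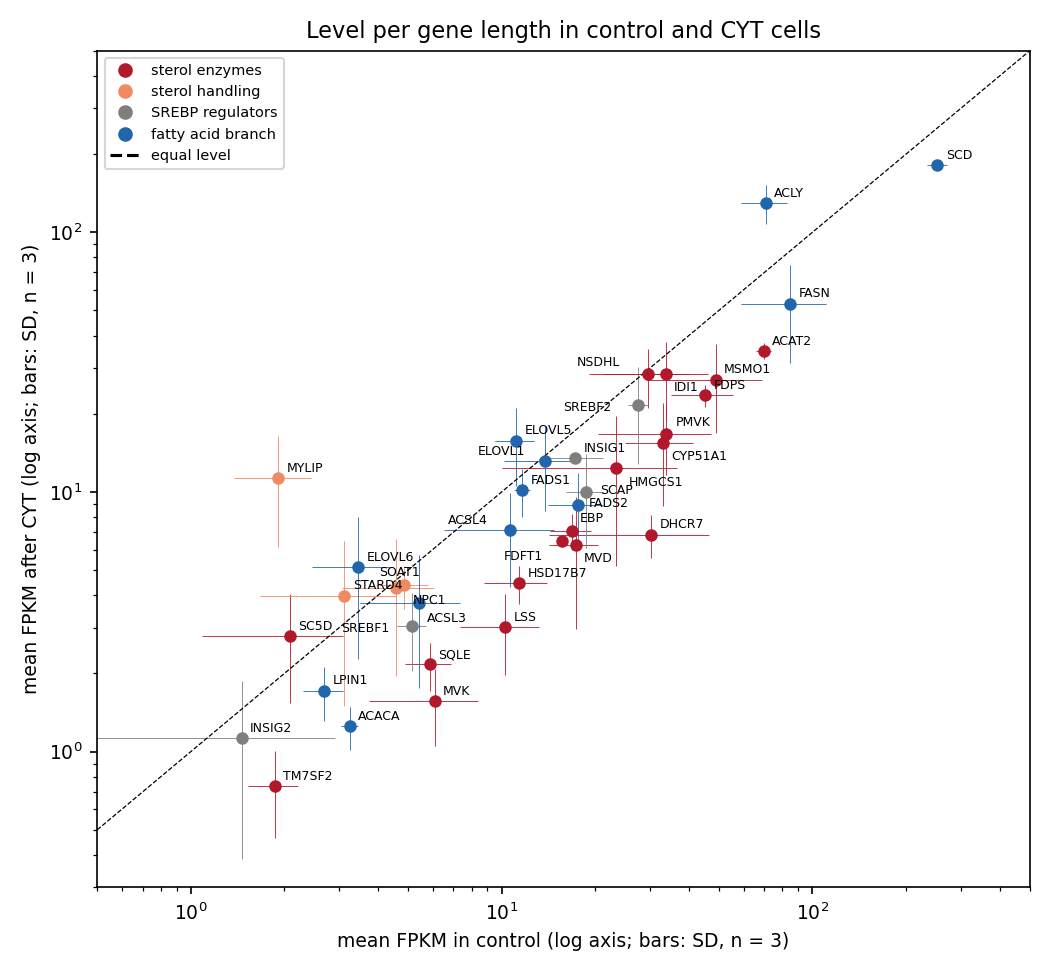
Mean FPKM in control (horizontal, log axis) and after CYT (vertical, log axis) for each of the 39 genes, with bars of 1 SD over 3 libraries and a dashed line of equal level, with the bar of INSIG2 running to the edge of the axis. Most sterol enzymes lie below the line, SCD lies at the top right at 252 FPKM in control, and MYLIP and ACLY lie above the line.

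Reads of overlapping genes may be shared, since the use of strand in counting is not given in the sources used here. The exons of MVK overlap on the other strand with MMAB, whose summed count was 51.2% of that of MVK and whose log2 fold change was -1.31 (adjusted p = 0.0137 by edgeR). Those of ACAT2 overlap with TCP1, whose summed count was 94.6% of that of ACAT2 and whose log2 fold change was -0.01, and those of NPC1 with RMC1 at 61.1%. FADS1 and FADS2 overlap each other on opposite strands. The pseudogene HSD17B7P2 had a summed count of 3.65% of that of HSD17B7.

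Across all 39 genes 13 were called lower (33.3%, against 12.9% of all genes tested), 1 was called higher (against 15.7%) and 25 did not pass the test. The median log2 fold change was -0.68, 33 of 39 values were negative with TMM scaling and 30 with upper-quartile normalization, and every CYT library lay below every control library in 18 (46.2%, against 22.7% of all genes) and above in 3 (against 23.4%). An exact permutation test of 3 against 3 libraries cannot give a two-sided p below 0.1 for a single gene, so the calls rest on edgeR's spread estimate over all genes. In the 17 alternative settings 8 of the 39 genes were called in every one, 6 sterol enzymes and ACACA lower and MYLIP higher, against 5.14% of all genes tested called lower and 4.05% called higher in every setting.

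**Figure D5:**
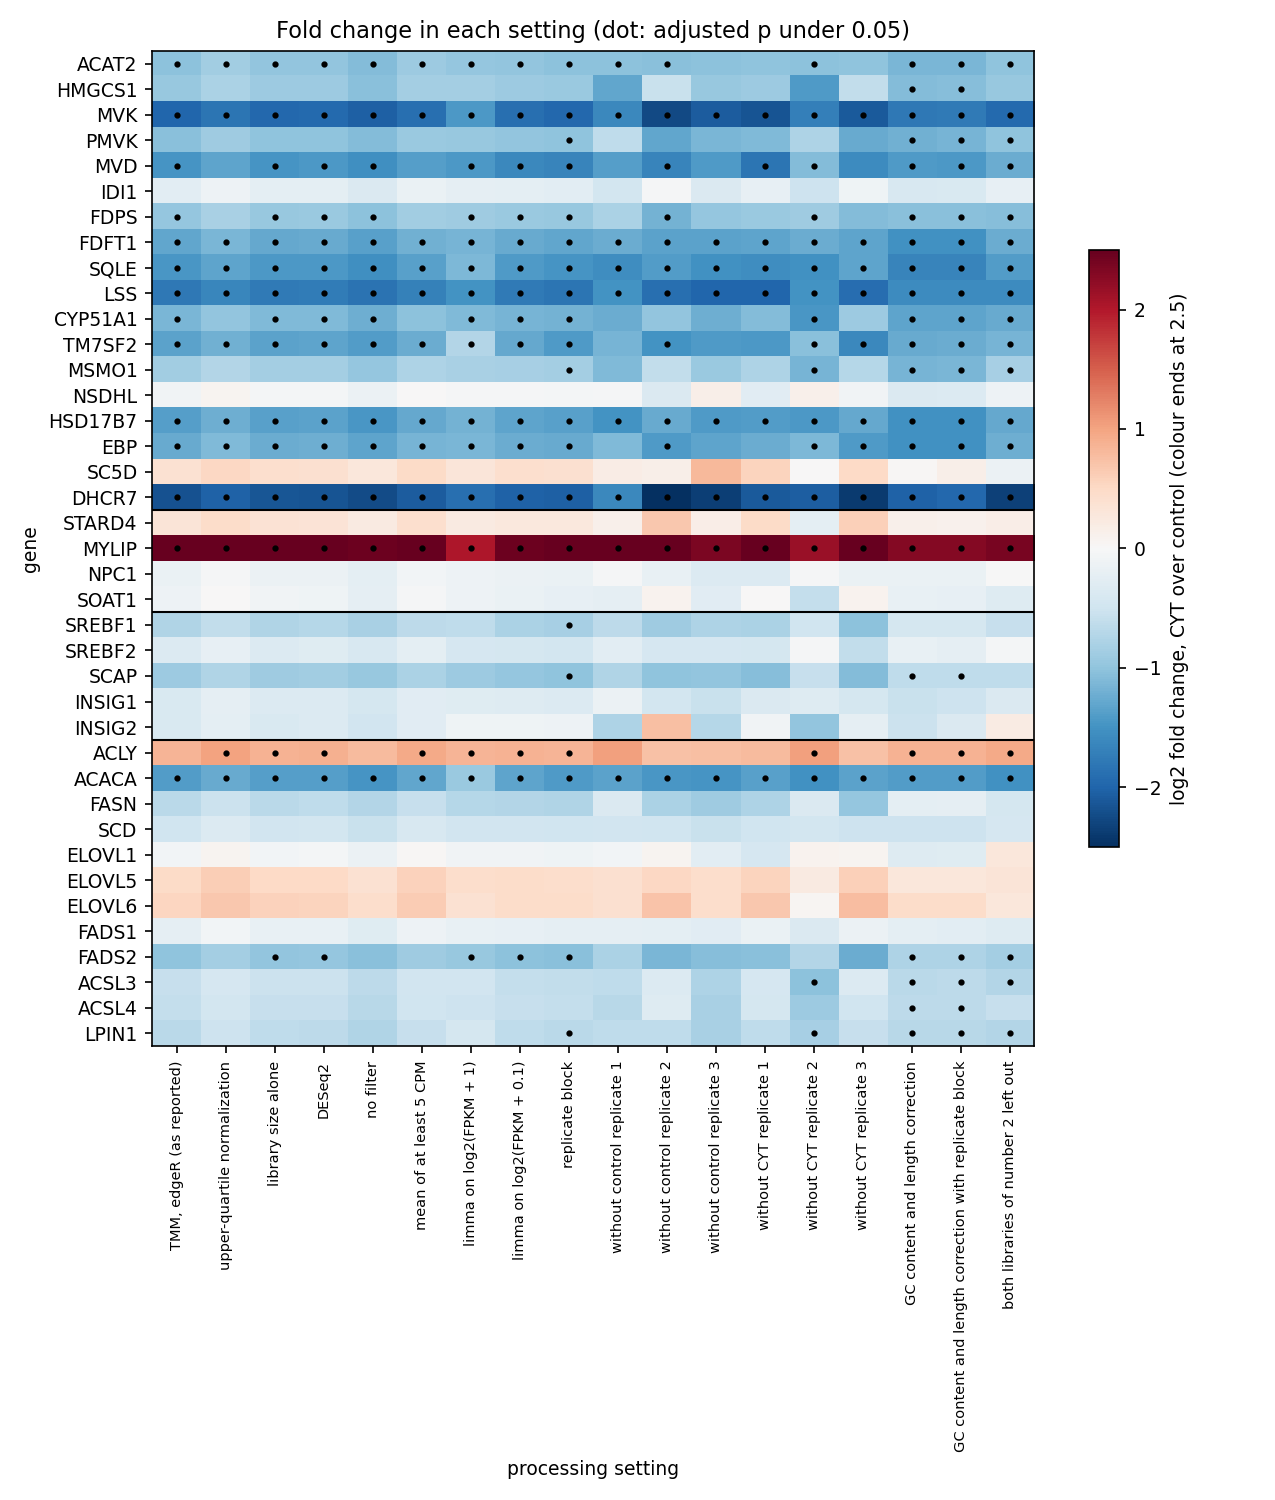
Log2 fold change of each gene (rows) in each processing setting (columns), with colour from blue (lower after CYT) to red (higher), with the colour scale ending at 2.5 on both sides, and a dot for an adjusted p under 0.05. The rows of MVK, FDFT1, SQLE, LSS, HSD17B7, DHCR7, MYLIP and ACACA carry a dot in every column.

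Other genes of lipid metabolism, in lists taken from textbook pathways, moved in both directions. Of 86 such genes 81 were tested, 14 fell (17.3%) and 11 rose, and their log2 fold changes had a median of 0.14. Among all genes tested 12.9% were called lower and 15.7% higher, so these counts lie near the background and are given as a description, as are those of the single lists, which hold few genes each. In the list of 9 further SREBP pathway genes, MBTPS1, a protease that cuts the SREBPs, fell by 1.21 on the log2 scale (adjusted p = 0.0142 by edgeR). The NF-Y subunits split, with NFYC falling by 1.05 (adjusted p = 0.0274), NFYB rising by 1.08 (adjusted p = 0.0430) and NFYA at -0.11 (adjusted p = 0.831). MBTPS2, SP1, ERLIN1 and C12orf49 did not pass the test. Of the 6 LXR genes tested of 7 listed, 3 fell (50.0%, against 12.9% of all genes) and 1 rose. RXRA, the partner receptor of the LXRs, went from 57.4 to 5.21 CPM, a fall of 3.46 on the log2 scale (SE 0.35, adjusted p = 0.000469 by edgeR). NR1H3, which encodes an LXR, fell by 1.25 (adjusted p = 0.0360 by edgeR), and LPCAT3, an LXR target that remodels phospholipids, rose by 1.11 on the log2 scale (adjusted p = 0.0254).

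Of 20 other sterol genes tested, 2 fell, against 12.9% of all genes, and 3 rose. DHDDS, of dolichol synthesis, fell by 1.47 on the log2 scale (adjusted p = 0.0122 by edgeR) and GRAMD1A, a sterol transfer protein, by 1.84 (adjusted p = 0.0151). GGPS1, which draws on farnesyl diphosphate for prenylation, rose by 1.05 (adjusted p = 0.0307), while FDPS fell. PGRMC1, a partner of sterol-metabolising P450 enzymes, rose by 1.80 (adjusted p = 0.00735), and the oxysterol-binding protein OSBP by 0.99 (adjusted p = 0.0237). Of 22 other genes of fatty acid synthesis and elongation, 3 fell (13.6%, against 12.9% of all genes) and 4 rose. FADS3, which neighbours FADS1 and FADS2, fell by 2.42 on the log2 scale (adjusted p = 0.00173 by edgeR), HSD17B8 by 1.20 and ACSS2, which makes acetyl-CoA from acetate, by 1.11 (adjusted p = 0.0418). THRSP, a regulator of lipogenesis, had no count in any control library and 45, 96 and 54 counts in CYT libraries 1 to 3, at least 25.5-fold higher against a floor of 3 counts per library, which covers counting error only. The elongation genes ELOVL3 and HACD3 rose by 1.92 (adjusted p = 0.00889) and 1.37 (adjusted p = 0.0176).

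Of 13 glycerolipid genes 3 fell (23.1%, against 12.9% of all genes) and none rose, with log2 fold changes of -2.004 for LPIN3, -1.54 for MGLL and -1.37 for AGPAT3. Of 11 genes of fatty acid oxidation 1 fell (9.09%, against 12.9% of all genes) and 2 rose. CPT1A, which admits fatty acids to the mitochondrion, fell by 1.33 on the log2 scale (adjusted p = 0.0121 by edgeR), while CPT2, the next enzyme of that transport, rose by 1.05 (adjusted p = 0.0179).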

How the data were processed

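Libraries of 3 control and 3 CYT-treated MDA-MB-231-DR samples were grouped by their labels. The authors separated mRNA, sequenced it on an Illumina NovaSeq, removed low-quality, adapter and ribosomal reads, and aligned with Hisat2. The submitters' processing notes name FastQC 0.12.1 and hg38. The authors deposited raw counts per gene, which were used for every test, and FPKM values, which the methods assign to Stringtie and which were used for levels. The counting program is not given in the sources used here.

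Counts were tested with edgeR 4.0.16 in R 4.3.3 (TMM, filterByExpr with a minimum count of 10, quasi-likelihood test, Benjamini-Hochberg adjustment over 15572 genes). The biological coefficient of variation was 37.5%. The genes, lists and settings were chosen with earlier results of these data known. All 39 genes are named, with values in every library for those called and for the 5 regulators. Other lipid genes are named where called, or the 3 largest rises and falls where a list had over 6 calls. Of the genes this rule names, 2 are not reported here. Replicates of a group differed beyond sampling noise (smallest chi-square per gene 22.1), so each library was counted once.

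Alternatives were DESeq2 1.42.0, a replicate block, library size alone, upper-quartile normalization, filtering on a mean of 5 CPM or not at all, limma 3.58.1 on log2 FPKM with a pseudocount of 1 or 0.1, and each library left out. A correction for GC content and transcript length (GENCODE 29, a value for 99.81% of genes), the same with the block, and leaving out both libraries of number 2 were added after seeing the data. Deviations from the group mean correlated at 0.188, 0.458 and 0.124 between same-numbered libraries of numbers 1, 2 and 3. The correlation of control 1 with CYT 3 was 0.303 and that of control 3 with CYT 1 was 0.201. Both lay above the same-number values of numbers 1 and 3, so pairing was not established for these numbers. Any pairing rests on the labels' numbers and this check alone. The reported calls come from the fit without a block, and the block was an alternative.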

Additional observations from a re-analysis of the deposited data

How the results depend on the processing

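Precision was limited by 3 libraries a group, a biological coefficient of variation of 37.5% and a library 2 that stood apart in each group. All 39 genes passed the filter on counts. Of the fold changes of the 39 genes under the 17 alternatives, 573 kept their direction and their side of the threshold, 45 passed it only in the alternative, 27 no longer did and 18 changed sign. The cause of these changes was not tested. Upper-quartile normalization moved the median over all genes to a log2 fold change of 0.155 and the GC correction to -0.115, and without a filter it was 0.412.

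The 13 genes called lower became 21 with the GC correction, with or without the replicate block. The single gene called higher became 2, and the fatty acid genes called higher became 1 (ACLY), with upper-quartile normalization, library size alone, DESeq2, a mean of at least 5 CPM, limma with either pseudocount, the replicate block, the GC correction with or without the block, and without both libraries of number 2. Fatty acid genes called lower were 2 with library size alone, DESeq2 and limma with either pseudocount, 3 with the replicate block, 5 with the GC correction with or without the block, and 4 without both libraries of number 2. Of the other lipid genes 22 were called lower with the GC correction with or without the block, where 26.0% and 25.6% of all genes were. Those called higher were 17 with DESeq2, the replicate block or the GC correction, and 18 with GC correction and block or without both libraries of number 2, where from 18.8% to 21.5% of all genes were called higher. Over all genes the count called lower was 3089 with the replicate block, 4041 with the GC correction, 3971 with both and 3101 without both libraries of number 2, and the count called higher was 1464 with a mean of at least 5 CPM. The sterol median was -1.04 with limma on log2(FPKM + 1) and -1.03 with the sterol handling genes, and the fatty acid median was -0.38 with upper-quartile normalization. With the handling genes the branches differed by -0.50.

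When each library was left out in turn, the genes called lower ran from 7 to 16, those called higher from 1 to 2, sterol enzymes called lower from 6 to 13, fatty acid genes called lower from 1 to 3 and higher from 0 to 1, other lipid genes called lower from 6 to 17 and higher from 3 to 14, and all genes called lower from 1208 to 2750. The fatty acid median ran from -0.67 to -0.33 and the branch difference from -0.95 to -0.61.

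Some genes that were not called changed sign. NSDHL was at 0.068 with upper-quartile normalization and 0.018 with the minimum of 5 CPM, and ran from -0.37 to 0.15 with a library left out. ELOVL1 was at 0.073, 0.023 and, without both libraries of number 2, 0.27, and ran from -0.42 to 0.081. SOAT1 was at 0.016 with upper-quartile normalization and ran from -0.60 to 0.091, and STARD4 ran from -0.25 to 0.68. Without both libraries of number 2, SC5D was at -0.15 and INSIG2 at 0.21, and INSIG2 ran from -0.99 to 0.75 with a library left out. The replicate block brought PMVK, MSMO1, SREBF1, SCAP, ACLY, FADS2 and LPIN1 past the threshold and lost none of the 14 calls.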
